A study of Mus musculus with 10 samples.

Results

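The genes described here are those that encode histone H3.3 and the proteins that carry it to chromatin. They were chosen by name, and all 10 names were found once each among the 55421 genes of the count table. They are H3f3a and H3f3b, which both encode H3.3, and 8 genes of the deposition machinery, namely Hira, Ubn1, Ubn2, Cabin1, Asf1a, Daxx, Atrx and Nasp. All 10 passed the filter on low counts.

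RNA was taken from 10 livers of male C57BL/6 mice, selected for poly(A) tails and sequenced. The H3.3 KO group held 4 livers of mice with H3f3a fl/fl and H3f3b fl/fl alleles that received AAV8 Tbg-Cre, a virus in which the hepatocyte promoter Tbg drives Cre recombinase. The WT Cre controls were 3 livers of wildtype mice that received the same Cre virus. The MCS controls were 3 livers of mice with the floxed alleles that received AAV8 Tbg-MCS, which carries no Cre. Virus was given at an age of 6 months, and tissue was collected after 3 weeks. The promoter restricts Cre to hepatocytes, so other liver cells kept intact alleles, as would any hepatocytes that the virus did not reach. The gene counts do not separate reads from exons inside and outside the floxed segments. In bulk tissue, fewer cells of a type and less RNA per cell cannot be told apart. The genotype field of the labels gives HIRA as the floxed gene, unlike the sample titles, which give both H3.3 genes. Grouping was by title, and Hira is therefore reported liver by liver.

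Total counts per liver ran from 20862860 to 26096141 in the controls. They ran from 21485241 to 23619487 in KO 2 to KO 4, and KO 1 was the shallowest at 14998426. Of 22449 genes tested, 36.3% differed between H3.3 KO and the 6 controls at an adjusted p under 0.05, with 19.7% higher and 16.6% lower in H3.3 KO. Against this background a single call among the chaperones carries little information. Expression is given as CPM, the normalised read count scaled to 1000000 with TMM library sizes, and adjusted p-values are from the quasi-likelihood test of edgeR, corrected over all genes tested.

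H3.3 is the histone H3 variant that can be placed into chromatin outside DNA replication, so non-dividing cells such as adult hepatocytes rely on it to renew nucleosomes. The HIRA complex, made of HIRA, a ubinuclein (UBN1 or UBN2) and CABIN1, deposits H3.3 at active genes and takes it from ASF1A, which escorts H3-H4 dimers. DAXX with the remodeller ATRX deposits H3.3 at pericentric repeats and telomeres, and NASP holds and protects the soluble H3-H4 pool.

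H3f3a and H3f3b encode the same protein with different codons. Their coding sequences of 411 bases encode 135 identical residues (the start methionine left out) although they differ at 95 bases, an identity of 76.9%. The replication-dependent H3 genes differ from H3.3 at residues 31, 87, 89 and 90 in 11 of 11 genes with a coding sequence of the same length, and at residue 96 in 4 of them. The stretch from codon 84 to codon 93 holds residues 87, 89 and 90 and is shown for the coding strand of mm10. It carries bases that differ between the 2 targeted transcripts, and between each of them and the replication-dependent H3 transcripts shown. The H3f3a pseudogenes were not compared over this stretch. H3f3a lies at chr1:180810117-180810146, H3f3b at chr11:116023625-116023654, Hist1h3a at chr13:23762072-23762101 (all minus strand) and Hist2h3b at chr3:96268946-96268975 (plus strand), each within 1 exon. Capitals mark bases that differ from H3f3a.
H3f3a: ttccagagtgcagctattggtgctttgcag
H3f3b: ttTcaAagtgcagcCatCggtgcCCtTcag
Hist1h3a: ttccagagCTcGgcCGtCATGgctCtgcag
Hist2h3b: ttccagagCTcGgcCGtCATGgcGCtgcag
H3f3b departs from H3f3a at 7 of these 30 bases, Hist1h3a at 10 and Hist2h3b at 11.

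Both targeted genes fell in H3.3 KO, to between 24.9% and 35.4% of the control mean in every liver. H3f3a (chr1:180800832-180813943, minus strand) was measured at 59.9 (lowest), 62.4 (median) and 63.7 (highest) CPM in the 6 controls. It stood at 16.0, 18.7, 16.0 and 19.0 CPM in KO 1 to KO 4. The highest KO liver was far below the lowest control, and the 4 KO livers kept 25.7% to 30.6% of its level. In the fit, H3f3a changed by -1.83 on the log2 scale (SE 0.0883, 95% interval -2.02 to -1.64, adjusted p = 3.5e-08).

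H3f3b (chr11:116021912-116027962, minus strand) was measured at 136, 156 and 204 CPM (lowest, median, highest) in the controls and at 39.8, 53.7, 51.8 and 56.7 CPM in KO 1 to KO 4. The groups again did not overlap, and the control spread was wider than for H3f3a, with MCS 3 at 204 CPM and the other 5 controls from 136 to 167 CPM. The fitted log2 fold change of H3f3b was -1.66 (SE 0.139, 95% interval -1.96 to -1.36, adjusted p = 3.62e-06). H3f3a and H3f3b were the 2 members lower in H3.3 KO at an adjusted p under 0.05, and both passed the stricter rule of an absolute log2 fold change over 1, which 5.79% of all genes passed in the downward direction. They were also the 2 members with every KO liver below every control, as were 12% of all genes tested, and they were the designed targets.

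**Figure D1:**
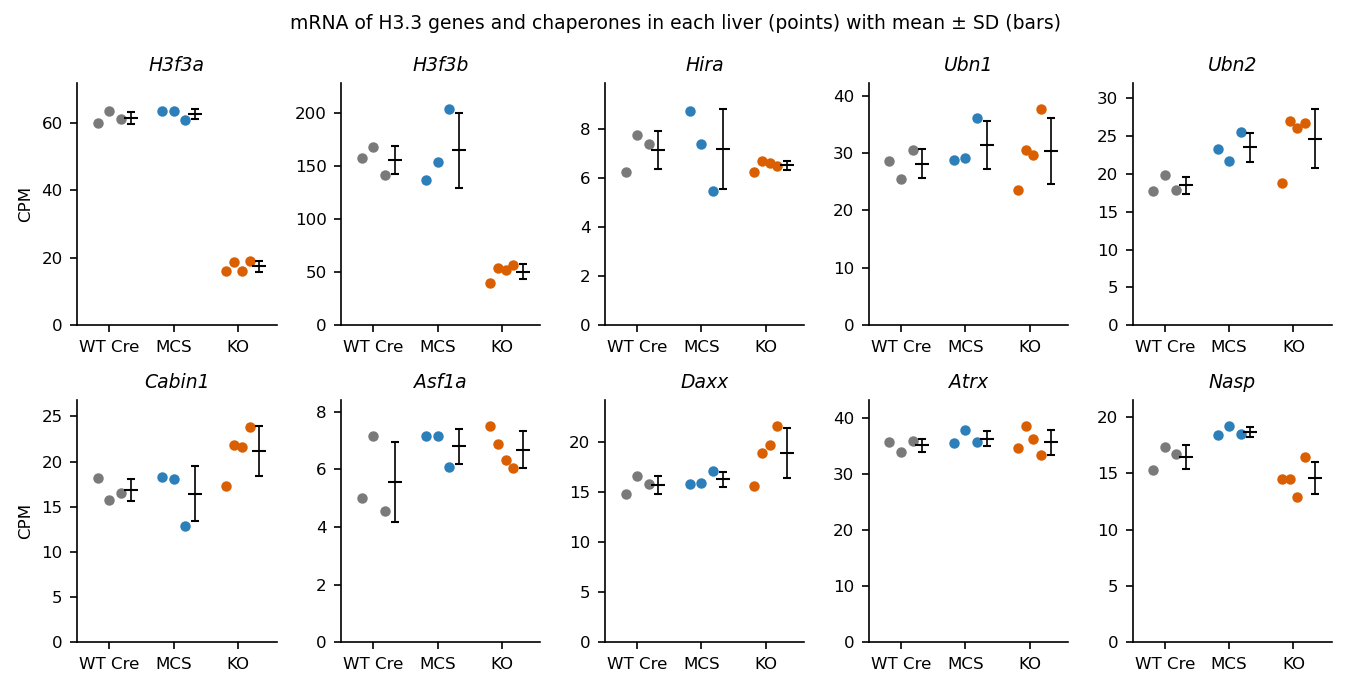
CPM (vertical axis, from 0) of each of the 10 genes in every liver, by group, with points for livers and bars for mean ± SD of 3 WT Cre, 3 MCS and 4 KO livers. The KO points of H3f3a (16.0 to 19.0 CPM) and H3f3b (39.8 to 56.7 CPM) lie apart from all controls, whereas in the other 8 panels at least 1 KO liver lies within the control range.

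The fall of both genes was close in size. The log2 ratio of H3f3a to H3f3b, each as counts per kilobase of exon, was -1.59 ± 0.221 (SD, n = 6) in the controls and -1.76 ± 0.161 (SD, n = 4) in H3.3 KO. The difference of -0.17 did not pass a two-sided exact permutation test over 210 splits of the livers (p = 0.21). Leaving out MCS 3, whose ratio was the lowest of the controls at -1.97, made the difference -0.25 (exact permutation p = 0.0476).

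The 2 deposited tables disagreed on which gene was the more abundant. From the counts per kilobase of exon, H3f3a stood at 0.255 to 0.396 of H3f3b in the controls and at 0.262 to 0.342 in H3.3 KO. In the FPKM table (fragments per kilobase of transcript, scaled for depth) H3f3a stood above H3f3b in every liver, at 1.04 to 1.56 in the controls and 1.03 to 1.32 in H3.3 KO. H3f3a FPKM were 101 ± 6.88 (SD, n = 6) in the controls and 27.8 ± 5.22 (SD, n = 4) in H3.3 KO, and H3f3b FPKM were 76.7 ± 9.24 and 23.3 ± 4.84. The difference between groups was alike on both scales, since the summed FPKM of both genes in H3.3 KO came to 28.8% of the control mean and the summed CPM to 30.6%. The order of the 2 genes therefore depends on the table, and the cause was not tested.

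**Figure D2:**
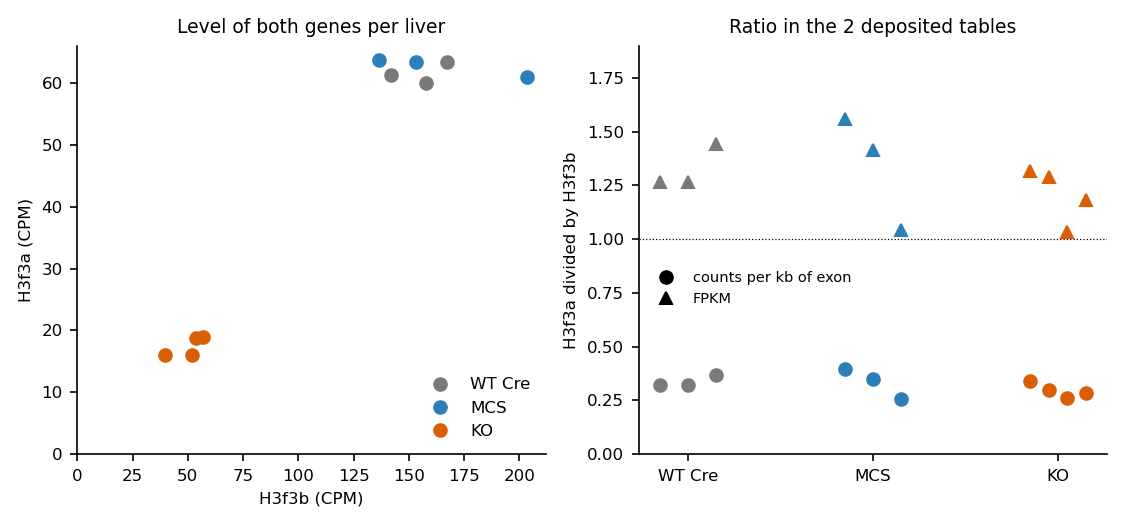
Left, CPM of H3f3a against CPM of H3f3b, 1 point per liver. Right, H3f3a divided by H3f3b in each liver from counts per kilobase of exon (circles) and from FPKM (triangles), with a dotted line at 1, where all circles lie below 0.4 and all triangles above 1.

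Sequence shared with other genes differed between both H3.3 genes. Of the coding windows of 50 bases in the H3f3a transcript, 92.8% occurred also, on either strand, in a transcript of another annotated gene, against 46.4% for H3f3b. Over the whole transcript these shares were 30.3% and 8.4%. With the same sense alone counted, the H3f3a share was 14.9%, and that of H3f3b stayed at 8.4%. The lincRNA Gm17275, on the opposite strand, shares 638 exon bases with H3f3a and holds 21.3% of the H3f3a windows. The pseudogenes H3f3c, H3f3a-ps2 and H3f3a-ps1 match the H3f3a coding sequence at 99.0%, 98.8% and 98.3% of bases. H3f3a-ps1 had 12 to 25 counts per control liver and 1, 6, 4 and 9 in KO 1 to KO 4, a log2 fold change of -1.84 (SE 0.359, adjusted p = 0.00152). H3f3a-ps2 had 3 to 6 counts per control liver and 1, 0, 0 and 1 in KO, and H3f3c had 4 to 8 and 1 to 4, and no fold is given at such counts. The counts of H3f3a and of these copies are uncertain to the extent that their reads could be exchanged. H3f3a held at least 246 counts in every liver. The FPKM table gave higher levels for 2 of the copies. H3f3c stood at 12.9 FPKM on average in the controls and 4.27 in H3.3 KO, and H3f3a-ps2 at 8.44 and 1.66. In the controls both lay above Nasp (6.76), the chaperone gene with the highest FPKM. H3f3a-ps1 stood at 1.48 and 0.430 FPKM. H3f3aos, an antisense gene that shares 160 exon bases with H3f3a, held 4 to 11 counts in the controls and 2 to 7 in H3.3 KO.

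Of the 5 genes of the HIRA arm, only Cabin1 passed the test against the 6 controls. Hira (chr16:18877037-18970309, plus strand), the subunit that names the complex, was measured at 5.48, 7.37 and 8.71 CPM (lowest, median, highest) in the controls and at 6.26, 6.68, 6.62 and 6.50 CPM in KO 1 to KO 4. All KO livers lay inside the control range. Hira gave a log2 fold change of -0.14 (SE 0.138, 95% interval -0.43 to 0.16, adjusted p = 0.477), so a fall of the size of the H3.3 genes lies outside the interval. Hira shares 2778 exon bases with Gm28539 on the same strand, which held 0 counts in every liver. Of the windows of 50 bases in the Hira transcript, 64.4% occurred also in Gm28539, and 89.5% of the coding windows did. How reads from this shared sequence were counted is not given in the sources used here, and the Hira counts are uncertain to that extent.

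The ubinucleins bind H3.3-H4 within the complex. Ubn1 (chr16:5050057-5086289, plus strand) was measured at 25.4, 29.0 and 36.2 CPM in the controls (lowest, median, highest) and at 23.6, 30.5, 29.7 and 37.7 CPM in KO 1 to KO 4. The KO livers spanned the whole control range, with a log2 fold change of 0.032 (SE 0.128, 95% interval -0.24 to 0.31, adjusted p = 0.871). Ubn2 (chr6:38433950-38524825, plus strand) was measured at 17.8, 20.8 and 25.5 CPM in the controls. In KO 1 to KO 4 it stood at 18.8, 27.0, 26.08 and 26.8 CPM, so that 3 KO livers lay above all controls and KO 1 within their range. Its fitted log2 fold change was 0.24 (SE 0.132, 95% interval -0.050 to 0.52, adjusted p = 0.188), and limma on the FPKM table called it (0.29, adjusted p = 0.0315 for log2(FPKM + 1), and 0.44, adjusted p = 0.03 for log2(FPKM + 0.1)).

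Cabin1 (chr10:75646112-75764341, minus strand), the calcineurin-binding subunit of the complex, was measured at 12.9, 17.3 and 18.3 CPM in the controls and at 17.3, 21.9, 21.6 and 23.9 CPM in KO 1 to KO 4. All 4 KO livers lay above the control mean of 16.6 CPM, and KO 1 lay within the control range. Its log2 fold change was 0.35 (SE 0.121, 95% interval 0.085 to 0.61, adjusted p = 0.0389), 27.1% higher than in the controls. Cabin1 was the 1 member higher in H3.3 KO, beside 19.7% of all genes. The call was lost when WT Cre 2, WT Cre 3, MCS 3, KO 2, KO 3 or KO 4 was left out (adjusted p = 0.0552 to 0.104), and with limma on the FPKM table (adjusted p = 0.188).

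Asf1a (chr10:53596757-53609225, plus strand) was measured at 4.56, 6.62 and 7.16 CPM in the controls and at 7.49, 6.88, 6.32 and 6.04 CPM in KO 1 to KO 4. Only KO 1 lay above the control range, and the log2 fold change was 0.11 (SE 0.158, 95% interval -0.23 to 0.45, adjusted p = 0.632). Asf1a shares 1748 exon bases with Mcm9 on the opposite strand. Mcm9 held 84 to 152 counts in the controls and 61 to 104 in H3.3 KO, against 109 to 176 and 115 to 174 counts of Asf1a, and the strand setting of the counting is not given in the sources used here.

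Neither gene of the DAXX-ATRX arm passed the edgeR test, and Daxx passed under several other settings. Daxx (chr17:33909414-33915590, plus strand), the H3.3-specific chaperone of this arm, was measured at 14.8, 15.9 and 17.1 CPM in the controls. In KO 1 to KO 4 it stood at 15.6, 18.9, 19.7 and 21.6 CPM, with KO 1 inside the control range and the other three above it. Its log2 fold change was 0.24 (SE 0.101, 95% interval 0.028 to 0.46, adjusted p = 0.0735). Daxx was called by DESeq2 (0.27, adjusted p = 0.0354), with the filterByExpr filter (adjusted p = 0.0352) and by limma on log2(FPKM + 1) (0.32, adjusted p = 0.0206) and log2(FPKM + 0.1) (0.36, adjusted p = 0.0183). Atrx (chrX:105797615-105929403, minus strand), which encodes the remodelling ATPase, was measured at 33.8, 35.7 and 37.8 CPM in the controls and at 34.6, 38.5, 36.2 and 33.3 CPM in KO 1 to KO 4. The Atrx groups overlapped and their means were 35.7 and 35.6 CPM. The log2 fold change of Atrx was -0.0021 (SE 0.0775) with the narrowest interval of the 10 members, -0.17 to 0.16 (adjusted p = 0.989).

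Nasp (chr4:116601052-116627941, minus strand) was the chaperone gene with the lowest fold change. It was measured at 15.3, 17.8 and 19.2 CPM in the controls and at 14.5, 14.5, 12.9 and 16.4 CPM in KO 1 to KO 4. All 4 KO livers lay below the control mean of 17.5 CPM, and KO 4 lay within the control range. The log2 fold change of Nasp was -0.27 (SE 0.102, 95% interval -0.49 to -0.048, adjusted p = 0.0555). It was called in the fit of 3 groups (-0.26, adjusted p = 0.0437), without WT Cre 1 (-0.30, adjusted p = 0.0367), without KO 4 (-0.33, adjusted p = 0.0278) and with a replicate block (-0.33, adjusted p = 0.0478). It shrank to -0.086 under scaling by library size alone and to -0.097 and -0.11 by limma on log2(FPKM + 1) and log2(FPKM + 0.1).

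Across the 8 chaperone genes, 1 was called in H3.3 KO against the 6 controls, beside 36.3% of all genes tested. An unadjusted p under 0.05 (edgeR) was reached by 3 of the 8, beside 10173 of all 22449 genes tested. The log2 fold changes of the 8 ran from -0.27 to 0.35 with a median of 0.071, beside -0.0030 over all genes tested. The widest limits of their 95% intervals were -0.49 and 0.61. None of the 8 had every KO liver above or below every control, beside 12.5% of all genes above and 12% below.

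**Figure D3:**
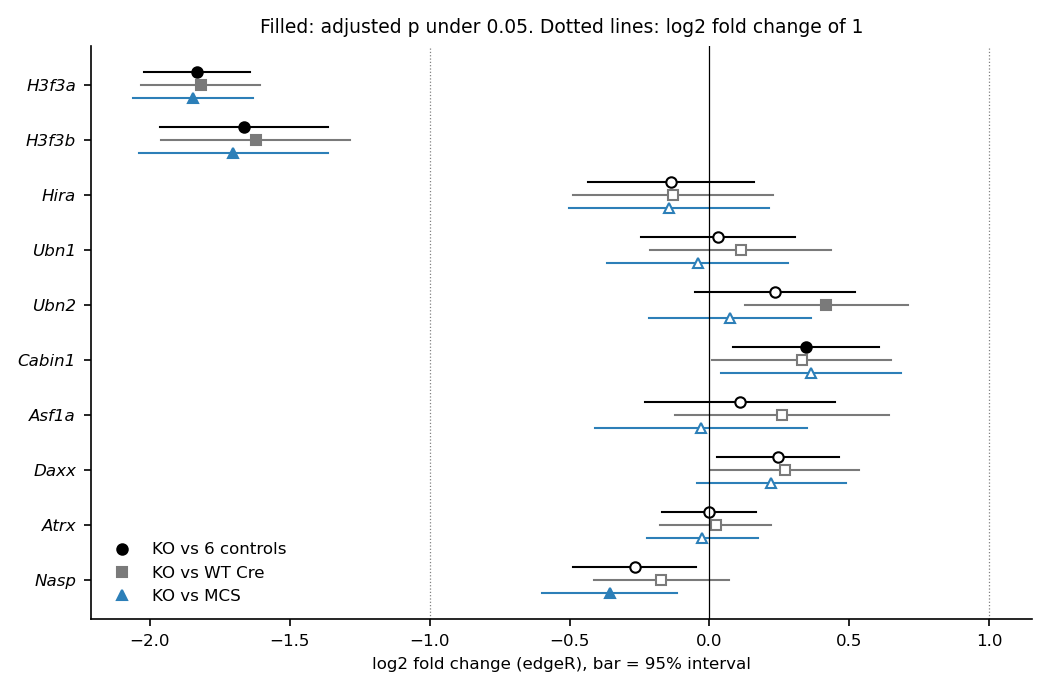
Log2 fold change (horizontal axis) of each gene in H3.3 KO against the 6 controls (circles), the 3 WT Cre controls (squares) and the 3 MCS controls (triangles), with 95% intervals as bars and filled symbols at an adjusted p under 0.05. H3f3a and H3f3b lie between -1.84 and -1.62 in all 3 comparisons, and the other 8 genes lie between -0.36 and 0.42.

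The KO livers differed among themselves in a pattern shared by several chaperones. KO 1 held the lowest level of the 4 for Cabin1, Daxx, Ubn1 and Ubn2, and also for Hira and H3f3b, and the highest for Asf1a. KO 1 was the shallowest library. It held the lowest summed level of the 10 Kupffer cell and macrophage markers in the group (579 CPM, against 898 to 1257 in KO 2 to KO 4). KO 1 was also lowest for the stellate cell and fibroblast (533 CPM), lymphoid (22.5 CPM), endothelial (321 CPM) and cycling cell (72.8 CPM) markers. For the hepatocyte (95675 CPM) and cholangiocyte (88.2 CPM) markers it was the highest of the group. The part of depth or cell types in this pattern was not tested. Without KO 1, 5 members were called, namely H3f3a, H3f3b, Cabin1 (log2 fold change 0.43, adjusted p = 0.00882), Daxx (0.33, adjusted p = 0.0101) and Ubn2 (0.34, adjusted p = 0.033). Leaving out KO 1 also raised the calls over all genes, from 8155 of 22449 tested to 9077 of 22192. Scaling by library size alone moved the median of all genes from -0.0030 to 0.17, turned the split of all calls from 4429 higher and 3726 lower to 5635 and 2172, and called the same 5 members, with Cabin1 at 0.52, Daxx at 0.43 and Ubn2 at 0.43. Under that scaling Hira and Atrx turned positive, at 0.036 and 0.18, without passing the test.

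**Figure D4:**
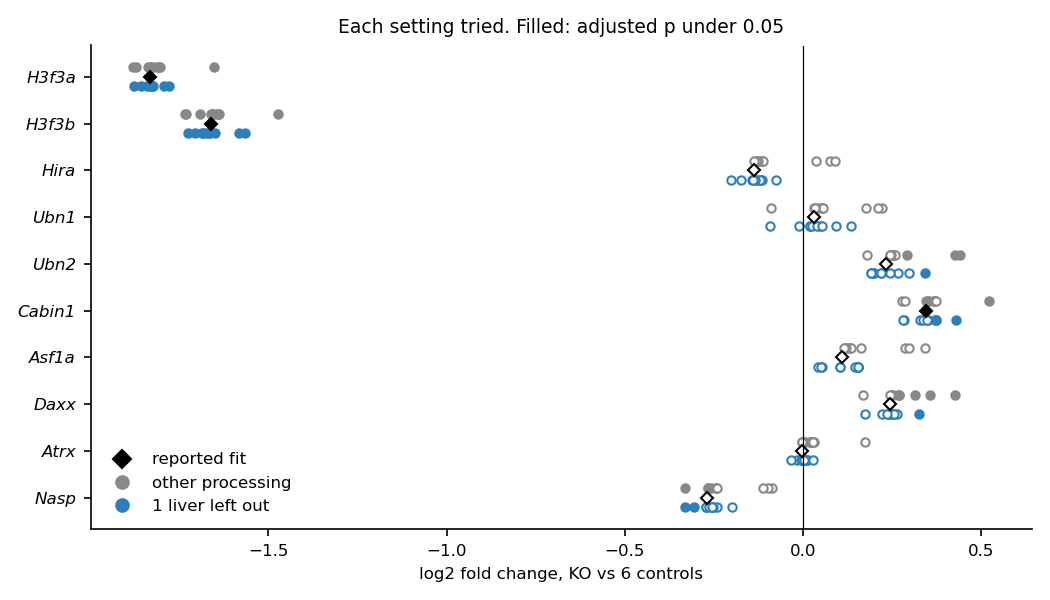
Log2 fold change of each gene against the 6 controls in the reported fit (diamonds), under other processing (grey) and with 1 liver left out (blue), filled at an adjusted p under 0.05. Every symbol of H3f3a lies between -1.88 and -1.65 and every symbol of H3f3b between -1.73 and -1.47, all filled, whereas Cabin1, Daxx, Ubn2 and Nasp hold filled and open symbols.

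Each kind of control was then set against H3.3 KO by itself. These comparisons share the KO livers and are not independent. Against the WT Cre controls, H3f3a (log2 fold change -1.82, SE 0.0982, adjusted p = 5.48e-07) and H3f3b (-1.62, SE 0.155, adjusted p = 3.12e-05) were lower, where 13.1% of all genes were lower. Ubn2 was the 1 member higher, where 15.3% of all genes were higher. Ubn2 stood at 17.8, 19.8 and 17.9 CPM in the WT Cre livers, and its log2 fold change was 0.42 (SE 0.134, adjusted p = 0.0348). Any 1 of the WT Cre livers, KO 2, KO 3 or KO 4 left out ended the Ubn2 call (adjusted p = 0.0612 to 0.112), as did limma on the FPKM table (adjusted p = 0.0578 and 0.0542) and a replicate block (adjusted p = 0.0646), so that it held in 10 of 19 alternatives.

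Against the MCS controls, 3 members were lower, where 14.8% of all genes were lower, and none was higher, where 17.3% were. H3f3a (log2 fold change -1.84, SE 0.0983, adjusted p = 3.1e-07) and H3f3b (-1.70, SE 0.155, adjusted p = 1.78e-05) were joined by Nasp. Nasp stood at 18.4, 19.2 and 18.4 CPM in the MCS livers, all above the highest KO liver at 16.4 CPM, and its log2 fold change was -0.36 (SE 0.111, adjusted p = 0.0275). The Nasp call was lost without WT Cre 3, MCS 1, MCS 2, KO 2 or KO 3 (adjusted p = 0.053 to 0.101), with no low-count filter (adjusted p = 0.0901) and under scaling by library size alone (log2 fold change -0.11, adjusted p = 0.551), and limma on log2(FPKM + 1) gave -0.067 (adjusted p = 0.658). Against the WT Cre controls, at 15.3 to 17.3 CPM, the log2 fold change of Nasp was -0.17 (SE 0.111, adjusted p = 0.276). Cabin1 missed the threshold against either kind of control alone, at 0.33 (SE 0.148, adjusted p = 0.116) against WT Cre and 0.36 (SE 0.148, adjusted p = 0.08) against MCS, and so did Daxx, at 0.27 (SE 0.122, adjusted p = 0.119) and 0.22 (SE 0.122, adjusted p = 0.187).

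Between both kinds of control, no member was called by edgeR, where 0.927% of all genes were, and DESeq2 called none. Ubn2 was the 1 chaperone with an unadjusted p under 0.05 (edgeR), beside 2397 of all 22449 genes tested. Ubn2 stood at 17.8 to 19.8 CPM in the WT Cre livers and 21.7 to 25.5 CPM in the MCS livers, without overlap, and the log2 fold change of WT Cre over MCS was -0.35 (SE 0.143, adjusted p = 0.399). Nasp did not overlap either, at 15.3 to 17.3 CPM in the WT Cre livers and 18.4 to 19.2 CPM in the MCS livers. Its log2 fold change of WT Cre over MCS was -0.18 (SE 0.119, adjusted p = 0.659). H3f3a differed by -0.027 (95% interval -0.25 to 0.20) and H3f3b by -0.080 (95% interval -0.44 to 0.28) between both kinds of control. As a percentage, the H3f3a interval for WT Cre relative to MCS ran from -16.0% to 14.7%.

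Levels can be compared between genes only per length, and the deposited FPKM and the count table scaled by total and by kilobase of exon gave different orders. On FPKM means of the 6 controls the order was H3f3a (101), H3f3b (76.7), Nasp (6.76), Daxx (5.89), Asf1a (5.56), Hira (4.61), Ubn1 (4.17), Atrx (3.81), Cabin1 (2.38) and Ubn2 (1.38). From Nasp to Atrx each gene overlapped the next in its range over the 6 livers, as did Cabin1 and Ubn2. H3f3a and H3f3b did not overlap. On scaled counts per kilobase the order began with H3f3b (51.0), H3f3a (16.9), Daxx (4.83), Ubn1 (3.42) and Nasp (2.22) and ended with Hira (1.10) and Ubn2 (0.928). On both scales the 2 H3.3 genes stood above all chaperone genes in the controls, and Ubn2 had the lowest mean. In H3.3 KO both H3.3 genes were still the highest by FPKM, at 27.8 and 23.3, above Daxx at 7.62, whereas on scaled counts per kilobase H3f3a (5.37 ± 0.620, SD, n = 4) fell below Daxx (6.498 ± 1.08).

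Markers of several liver cell types differed between the groups, and their part in the results above was not tested. Over all genes tested, 19.7% were higher and 16.6% lower in H3.3 KO. Of 9 hepatocyte markers in the table, 6 were lower in H3.3 KO and none was higher, and their summed level was 80825 to 95675 CPM in H3.3 KO and 106392 to 154369 CPM in the controls. All 10 Kupffer cell and macrophage markers, 9 of 10 stellate cell and fibroblast markers and 7 of 10 lymphoid markers were higher. Their summed levels were 579 to 1257, 533 to 862 and 22.5 to 63.4 CPM in H3.3 KO, and 248 to 468, 235 to 315 and 11.3 to 15.5 CPM in the controls. Of the endothelial markers 1 of 10 and of the cholangiocyte markers 1 of 7 tested were higher, not above the 19.7% of all genes. Their summed levels overlapped, with the lowest KO liver at 321 and 71.2 CPM and the highest control at 391 and 80.6 CPM. Of the cycling cell markers 9 of 10 were higher, at 72.8 to 97.0 CPM summed in H3.3 KO and 46.9 to 54.7 CPM in the controls. No marker of these lists was at 0 in all livers.

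Partners of the chaperones were read from lists of related genes, beside the 36.3% of all genes called. In the list of H3-H4 supply and replication-coupled assembly, 2 of 14 genes were higher and 3 lower, with a median log2 fold change of -0.032. Asf1b, the paralog of Asf1a used mainly in dividing cells, stood at 0.527 ± 0.168 CPM in the 6 controls and rose to 1.97 ± 0.310 CPM in the 4 KO livers (mean ± SD, as below), a log2 fold change of 1.88 (SE 0.254, adjusted p = 0.000114). Mcm2, a subunit of the replicative helicase that also binds H3-H4, rose by 0.81 (SE 0.284, adjusted p = 0.0398), although the WT Cre livers (4.92 to 5.13 CPM) lay within the KO range of 4.50 to 7.11 CPM and the MCS livers (2.01 to 2.37 CPM) below it. Rbbp4 and Rbbp7, H3-H4 binding proteins shared by CAF-1, HAT1 and several repressor complexes, fell with all KO livers below all controls. Rbbp4 went from 116 ± 7.46 to 80.1 ± 2.61 CPM (log2 fold change -0.54, adjusted p = 0.000389) and Rbbp7 from 60.4 ± 1.52 to 43.1 ± 3.00 CPM (-0.49, adjusted p = 0.000449). Tlk2, a kinase of ASF1, fell by 0.27 on the log2 scale (adjusted p = 0.0257) and kept its call in 13 of 20 alternatives, not under library size scaling, whereas Asf1b, Rbbp4 and Rbbp7 kept theirs in all 20. The Mcm2 call held in 12 of 20 and was lost without any 1 of the MCS livers or of KO 2, KO 3 and KO 4. Under library size scaling 3 genes of this list were higher and 2 lower, with a median of 0.14.

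In the list of PML body and DAXX-ATRX partners, 3 of 7 genes were higher and none was lower, with a median of 0.086. Sp100, a component of PML nuclear bodies, rose from 13.2 ± 1.53 to 22.9 ± 4.64 CPM (log2 fold change 0.79, SE 0.138, adjusted p = 0.000713). Morc3, a chromatin ATPase of the same bodies, rose by 0.66 (SE 0.153, adjusted p = 0.00445), and Setdb1, an H3K9 methyltransferase, by 0.30 (SE 0.0959, adjusted p = 0.0282). The calls of Sp100 and Morc3 held in all 20 alternatives and that of Setdb1 in 16, being lost without MCS 2, KO 2 or KO 3 and with no low-count filter (adjusted p = 0.0524). Pml itself stood at 22.5 ± 3.61 CPM in the controls and a mean of 23.2 CPM in H3.3 KO (0.048, adjusted p = 0.815), and Trim28 at 52.7 ± 3.26 and 51.6 ± 4.15 CPM (-0.032, adjusted p = 0.809). Cbx5, which encodes a heterochromatin protein, also missed the threshold (0.086, adjusted p = 0.562).

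In the list of transcription-coupled histone exchange, 1 of 9 genes was higher and 1 lower, with a median of 0.061. Chd2, a remodeller linked to H3.3 incorporation at transcribed genes, rose from 26.6 ± 3.38 to 46.4 ± 5.15 CPM with all KO livers above all controls (log2 fold change 0.80, SE 0.111, adjusted p = 0.00014). Dek, a chromatin protein with H3.3 chaperone activity, fell from 33.1 ± 3.47 to 24.8 ± 2.45 CPM (-0.42, SE 0.103, adjusted p = 0.0066). The Dek call held in 17 of 20 alternatives and was lost under library size scaling (adjusted p = 0.113) and by limma on the FPKM table (adjusted p = 0.0539 and 0.0515), where 3 genes of this list were higher and 0 lower. The list median turned to -0.015 with a replicate block and to -0.0072 without KO 4. Of the FACT subunits, Ssrp1 (0.036, adjusted p = 0.759) and Supt16 (-0.023, adjusted p = 0.91) did not pass. Supt6, an elongation factor that binds H3-H4, missed the threshold at 0.24 (adjusted p = 0.0645).

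Among 11 other histone chaperones, 2 were higher and 3 lower, and under library size scaling 4 were higher and 0 lower, with the median turning from -0.11 to 0.062. On the FPKM values limma called 3 higher and 1 lower. Anp32a (-0.44, adjusted p = 0.00546), Nap1l4 (-0.35, adjusted p = 0.00844) and Npm1 (-0.34, adjusted p = 0.00881) fell in the reported fit, and Set (0.24, adjusted p = 0.0452) and Anp32e (0.32, adjusted p = 0.0478) rose. The Set and Anp32e calls held in 10 and 9 of 20 alternatives, and each was lost when any of 8 of the 10 livers was left out.

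By CPM, other H3 genes were measured at low levels in these poly(A) libraries. Of 17 such genes, 11 could be tested, 1 was higher and 2, the pseudogenes H3f3a-ps1 and H3f3a-ps2, were lower. Both pseudogenes had few counts, and their reads could be exchanged with those of H3f3a, as described above. Cenpa, the centromeric H3 variant, rose from 4.72 ± 0.617 to 11.7 ± 2.53 CPM with all KO livers above all controls (log2 fold change 1.31, SE 0.156, adjusted p = 5.04e-05), in the direction of the cycling cell markers. Replication-dependent H3 transcripts, which end without a poly(A) tail, stood below 1 CPM on average in both groups, and Hist1h3h, Hist2h3b and Hist2h3c1 had no counts.

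**Figure D5:**
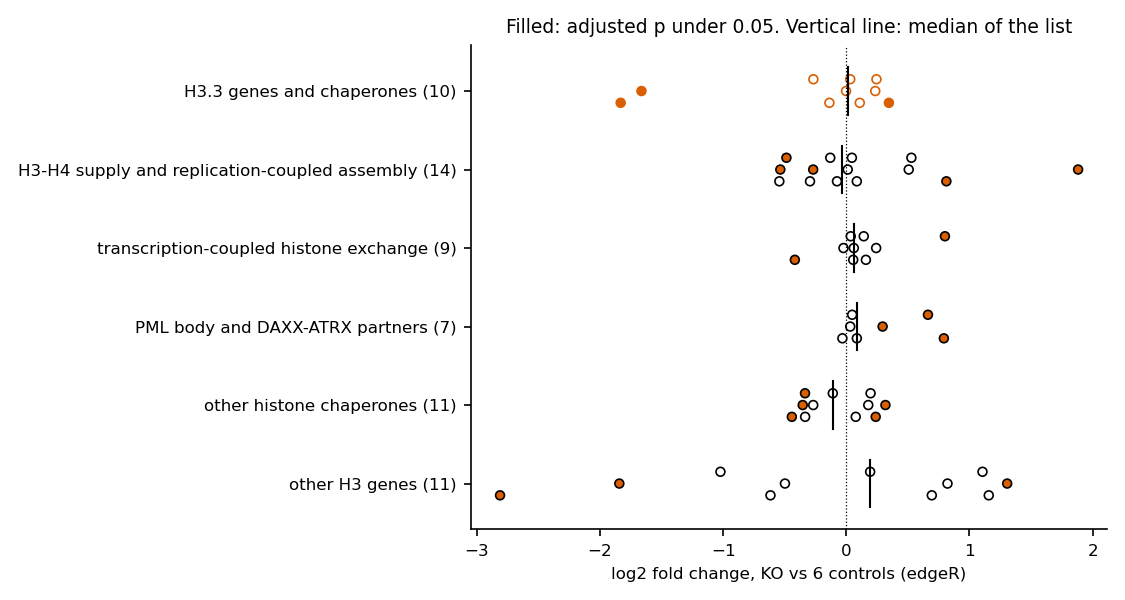
Log2 fold change against the 6 controls (horizontal axis) of the 10 genes and of the tested genes of each partner list (number in parentheses), filled at an adjusted p under 0.05, with a vertical line at each median. The 8 chaperones lie within 0.35 of 0, and the medians of the lists run from -0.11 to 0.19.

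The genes whose pattern over the 10 livers was most like that of the H3.3 genes were found by Pearson's r of log2 CPM among 13210 genes with a mean of at least 1 CPM. For H3f3a these were Ube2e3 (r = 0.992), Polr3gl (0.991), Prmt6 (0.987), Rfx4 (0.986) and Fdxacb1 (0.985). For H3f3b they were Casd1 (r = 0.985), Paip1 (0.983), Mrps36 (0.982), Pitx3 (0.981) and 9430038I01Rik (0.98). Chosen for likeness to genes that fell, each was lower in H3.3 KO by selection. They ran from Mrps36 at 7.51 ± 0.346 CPM in the controls (SD, n = 6) and 5.20 ± 0.367 CPM in H3.3 KO (SD, n = 4) to Rfx4 at 3.71 ± 0.824 and 0.0466 ± 0.0346 CPM. H3f3a and H3f3b correlated at r = 0.977 with each other, which ranked H3f3b at place 22 for H3f3a and H3f3a at place 10 for H3f3b. With 4 KO livers apart from 6 controls these coefficients mostly describe the step between the groups. In each liver both genes of a pair were read from the same library.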

How the data were processed

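Poly(A) RNA-seq libraries of 10 mouse livers (3 WT Cre, 3 MCS, 4 H3.3 KO) were analysed. The authors trimmed the reads, aligned them to mm10 with STAR and deposited whole-number gene counts. The methods name HOMER and the submitters' processing notes HTSeq for the counting, and the notes also name Cufflinks. The authors also deposited FPKM values, whose 268042 blank cells were read as 0. Control columns were matched to livers by library number, on which every comparison with 1 kind of control rests. Handling of reads with several matches is not given in the sources used here.

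Genes with at least 10 counts in all were kept. The main test was edgeR 4.0.16 (quasi-likelihood, TMM, robust, two-sided, R 4.3.3) with Benjamini-Hochberg adjustment over 22449 genes. A gene was called at an adjusted p under 0.05. SE was taken as the absolute fitted change over the root of its F statistic, and 95% intervals use its t distribution. KO was set against 6 controls in a fit of 2 groups, and against each kind in a fit of 3. A ratio per liver was tested by exact permutation. The labels number replicates without naming animals, and the study counts its replicates as mice. Fits were tested on simulated data. DESeq2 1.42.0 and limma 3.58.1 were among the alternatives. Coordinates, exon lengths and sequences were read from GENCODE M21 on mm10.

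The text names all 10 members, up to 5 genes per partner list by smallest adjusted p with others added after their values were seen, and 5 genes most like each H3.3 gene. The members and lists were chosen with earlier results of these data known.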

Additional observations from a re-analysis of the deposited data

Results flagged for a closer look

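Ubn2 in KO 1 stood at 18.8 CPM, apart from the other KO livers at 26.08 to 27.0 CPM, with a gap to its nearest neighbour beyond Dixon's 95% critical value for 4 samples. It was the only such value among 20 groups examined (10 genes, in 4 KO livers and in 6 controls), and chance alone flags about 1 in 20 groups. KO 1 was the shallowest library (14998426 counts). Without it, Ubn2 was higher in H3.3 KO than in the 6 controls (log2 fold change 0.34, adjusted p = 0.033, edgeR). Calls over all genes also rose without KO 1, from 8155 of 22449 tested to 9077 of 22192.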

How the results depend on the processing

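H3f3a and H3f3b kept their direction and their call under all 20 alternatives against the 6 controls, at -1.88 to -1.65 and -1.73 to -1.47 on the log2 scale. The number of members called was 3 in each comparison with H3.3 KO, 5 against the 6 controls when scaled by library size alone, 4 against them with DESeq2, filterByExpr, limma on either FPKM scale (Daxx gained in each, and on FPKM also Ubn2 gained and Cabin1 lost) and the fit of 3 groups (Nasp gained), and 2 to 5 in each of the 3 comparisons with 1 liver left out (5 without KO 1). It was 0 between the controls throughout. Atrx, at -0.0021, turned positive at 0.021 with DESeq2, 0.020 with RLE size factors, 0.18 with library size alone, 0.0062 with no low-count filter, 0.023 with filterByExpr, 0.027 and 0.032 with limma on log2(FPKM + 1) and log2(FPKM + 0.1), and -0.033 to 0.028 with 1 liver left out. Hira turned positive at 0.036 with library size alone and at 0.076 and 0.091 with limma on FPKM, and Ubn1 ranged from -0.091 to 0.13 with 1 liver left out. The H3f3a to H3f3b log2 ratio differed by -0.25 to -0.12 with 1 liver left out, and by -0.14 on FPKM. Deviations of same-numbered livers correlated at -0.039 to 0.11, and those of differently numbered livers at -0.15 to 0.19. No pairing by number was seen, although groups of 3 or 4 livers are too small to exclude it. With a replicate block Ubn1 was -0.089, Atrx 0.028, Cabin1 0.29 (adjusted p = 0.132, edgeR), Nasp -0.33 (adjusted p = 0.0478), and 3 members were called. For the ratio, KO 1 to KO 3 were each set against the mean of the same-numbered controls, and KO 4 was left out. The ratio then differed by -0.16 (exact sign-flip permutation over 8 arrangements, p = 0.25, the smallest that 3 numbers allow). Of 536 values under an alternative, 462 were classed as the same. For a fold change or ratio, that meant the same direction and side of the threshold. For a number of members called, it also allowed small changes, such as from 3 to 4 or to 2. The cause of these shifts was not tested.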
